A study of Mus musculus with 18 samples.

Results

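The transcripts described here encode the TREM2 receptor, its signalling adaptors, the kinase SYK with the proteins it acts through, the phosphatases that restrain it, and a pair of myeloid surface receptors. The members are the 10 genes Trem2, Cd84, Itgax, Tyrobp, Hcst, Syk, Vav1, Plcg2, Ptpn6 and Inpp5d, taken by symbol from the 23420 gene symbols counted in retinal RNA. The question was how their transcripts differed between naïve retinas, light-exposed retinas of vehicle-treated mice and light-exposed retinas of mice treated with TD139, an inhibitor of the sugar-binding protein galectin-3.

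TREM2 is a lipid-sensing receptor of microglia and other myeloid cells. It has no signalling tail of its own and pairs with DAP12, the product of Tyrobp, whose ITAM motif is phosphorylated by SRC-family kinases and then recruits SYK. SYK passes the signal to phospholipase C gamma 2, to VAV exchange factors and to phosphoinositide 3-kinase, while SHP-1 and SHIP-1 oppose it. In the resting retina microglia are a sparse population of the inner layers, and they move towards photoreceptors when these degenerate.

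All mice were wild-type BALB/cJ, an albino and light-sensitive strain, and no transgene or targeted allele is given for them. The 3 naïve mice are labelled as without light and without treatment. The 3 vehicle-treated and the 3 TD139-treated mice were exposed to light of 15000 lux for 1 h, and received daily intraperitoneal injections of DMSO or of TD139 at 15 mg/kg in DMSO, which began before the exposure. Retinas were taken at 4 days. Since only the light-exposed groups are labelled as treated, light and DMSO cannot be told apart in a comparison with naïve mice. Whole-retina RNA was read on 2 flow cells, the counts of the 2 runs were added within each mouse, and the 9 mice had 26171887 to 30201517 reads on genes. Values are given as reads counted per mouse and as CPM, counts scaled by the TMM-adjusted library size. A floor of 3 counts corresponds to 0.0993 to 0.115 CPM, and covers counting error only. The labels name the mice as separate samples but not their litters, so p-values measure the spread between these mice. The paper states that both sexes were used. Xist, which marks female mice, had 26775 and 29957 counts in naïve mice 2 and 3. It had 27435 in vehicle-treated mouse 3, 59255 in TD139-treated mouse 2 and at most 49 in the other mice. Sexes were thus mixed in every group. Sex was not in the fit, and its part in the results was not tested.

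The retina label held, with 8 rod genes at a summed level of 68158 to 77101 CPM in naïve retinas, 39474 to 54915 CPM after vehicle and 56203 to 70008 CPM after TD139. The 11 microglial identity genes (Csf1r, Cx3cr1, Tmem119 and others) were detected in all groups. Their summed level was 19.2 to 21.8 CPM in naïve retinas, 80.6 to 103 CPM after vehicle and 16.5 to 49.6 CPM after TD139, the latter high in TD139-treated mouse 1 (49.6 CPM) and at 19.6 and 16.5 CPM in its companions. Summed levels of neutrophil markers were 0 to 0.0754 CPM in naïve retinas, 0.141 to 0.787 CPM after vehicle and 0.0395 to 0.26 CPM after TD139. Vehicle-treated mouse 2 (0.141 CPM) was below TD139-treated mouse 1 (0.26 CPM). T and NK lymphocyte markers summed to 0.423 to 0.55, 0.644 to 1.08 and 0.316 to 0.522 CPM in the same order of groups. For these lymphocyte markers every vehicle-treated mouse was above the other 6, on sums of 18 to 32 counts. No gene of either list passed the filter on low counts. Monocyte markers summed to 4.24 CPM in vehicle-treated mouse 2 and to between 0.33 and 1.01 CPM elsewhere. The marker Plac8 had 10, 2 and 1 counts in naïve retinas, 1, 74 and 0 after vehicle and 0 in all TD139-treated mice. Ly6c2, the tested monocyte marker, was not called (log2 fold change 0.22 for vehicle against naïve and −0.08 for TD139 against vehicle). B lymphocyte markers summed to between 1.06 and 2.05 CPM in all groups. Of 6 Müller glia genes, 2 rose with vehicle and 1 was lower with TD139, beside 4.91% and 16.2% of all tested genes. The summed level of 7 retinal pigment epithelium genes was 118 to 251, 214 to 451 and 125 to 185 CPM in the naïve, vehicle-treated and TD139-treated groups. The part of these cells in the results below was not tested, and in RNA of whole retinas fewer cells of a type and less RNA per cell cannot be told apart.

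Promoter sequences are shown for Trem2, Vav1, Inpp5d and Ptpn6, the 4 members that fell under TD139. Each line gives the 250 bases before a RefSeq start site on the coding strand, on GRCm38.p6, and capitals mark every copy of GAGGAA, a core bound by ETS-family factors such as the myeloid regulator PU.1, on either strand.
Trem2 (chr17:48346151-48346400, plus strand): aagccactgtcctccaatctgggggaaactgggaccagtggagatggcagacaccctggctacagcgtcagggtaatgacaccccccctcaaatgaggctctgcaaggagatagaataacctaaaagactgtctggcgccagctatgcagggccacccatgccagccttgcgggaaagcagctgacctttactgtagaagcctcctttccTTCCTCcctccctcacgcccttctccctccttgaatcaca
Vav1 (chr17:57278850-57279099, plus strand): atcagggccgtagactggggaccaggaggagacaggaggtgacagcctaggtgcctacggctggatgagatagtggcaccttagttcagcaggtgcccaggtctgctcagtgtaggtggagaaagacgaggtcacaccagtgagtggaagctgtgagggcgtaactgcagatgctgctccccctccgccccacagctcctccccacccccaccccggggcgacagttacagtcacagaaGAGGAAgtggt
Inpp5d (chr1:87620062-87620311, plus strand): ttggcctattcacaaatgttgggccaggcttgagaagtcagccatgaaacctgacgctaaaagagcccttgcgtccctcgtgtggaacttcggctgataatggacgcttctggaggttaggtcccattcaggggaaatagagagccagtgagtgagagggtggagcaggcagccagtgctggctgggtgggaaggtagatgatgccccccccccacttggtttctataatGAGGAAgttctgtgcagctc
Ptpn6 (chr6:124738710-124738959, minus strand): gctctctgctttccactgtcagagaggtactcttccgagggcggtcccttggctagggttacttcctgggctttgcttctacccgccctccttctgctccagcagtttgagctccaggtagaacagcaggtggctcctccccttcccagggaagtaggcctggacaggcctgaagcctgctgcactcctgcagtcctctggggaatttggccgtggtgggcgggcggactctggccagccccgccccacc
Trem2 carried the letters on the opposite strand, where they read TTCCTC, and Vav1 and Inpp5d carried them on the coding strand close to the start. In both Vav1 and Inpp5d they extended to GAGGAAGT. Ptpn6 held no copy of GAGGAA, but its window includes ACTTCCTG, which reads CAGGAAGT on the opposite strand. Other sequences bound by ETS-family factors were not searched for. Of 32851 RefSeq promoter windows of this length, 23.3% held GAGGAA and 2.44% held GAGGAAGT on either strand, every longer match being also a shorter one. Among 10 windows found for the members, 4 held the shorter motif, the further one being an internal start of Syk. A match is a run of letters and not a measured binding site.

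In vehicle-treated mice 5 of the 9 tested members rose above naïve mice, namely Trem2, Cd84, Syk, Vav1 and Ptpn6. The fold changes ran from 3.32 for Ptpn6 to 22.2 for Cd84. TD139-treated mice had lower levels of Trem2, Vav1, Ptpn6 and Inpp5d than vehicle-treated mice, by 1.83-fold for Inpp5d to 6.76-fold for Trem2. Between TD139-treated and naïve mice none of the members was called. Hcst had too few counts to be tested.

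**Figure D1:**
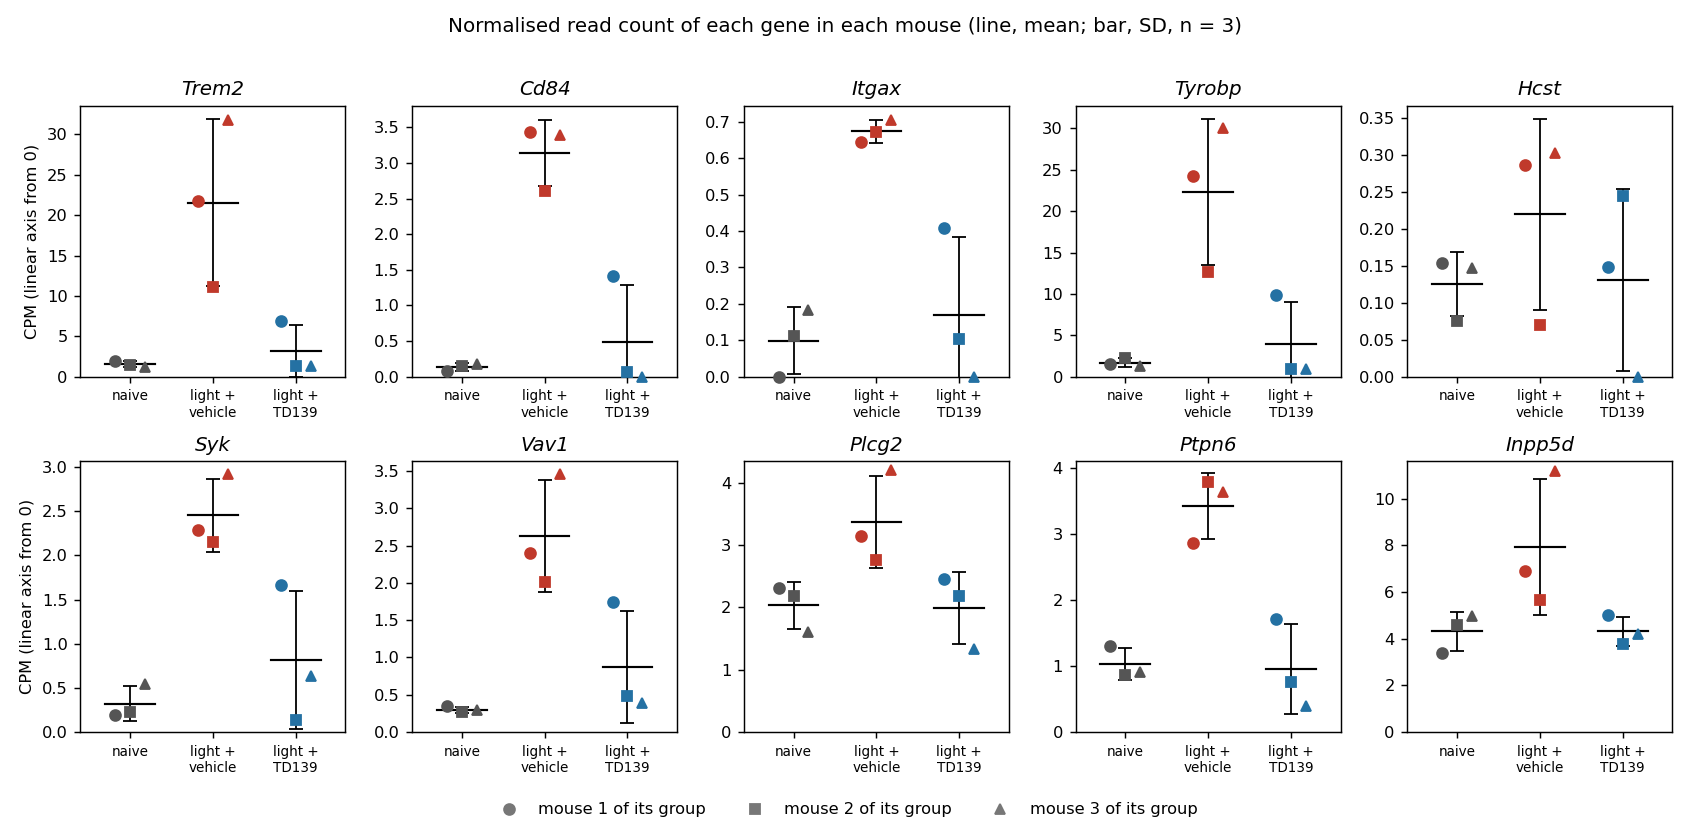
Each panel plots 1 gene, with CPM on a linear axis from 0 and 1 point per mouse for naïve, vehicle-treated and TD139-treated mice; lines are means and bars SD (n = 3), cut at 0 where they would pass below it. All vehicle-treated mice lie above all naïve and TD139-treated mice except for Hcst, and mouse 1 is the highest of the TD139 group in every panel but that of Hcst.

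Among the receptors, Trem2 on chromosome 17 (48346401 to 48354147, plus strand, GRCm38) had 52, 39 and 34 counts in naïve retinas, 609, 314 and 946 after vehicle and 187, 38 and 33 after TD139. The vehicle-treated mice stood apart from all others, while TD139-treated mice 2 and 3 were at the naïve level and mouse 1 lay between the groups. The mean level was 1.57 ± 0.386 CPM (SD, n = 3) in naïve retinas, 21.5 ± 10.3 CPM after vehicle and 3.19 ± 3.24 CPM after TD139. Trem2 rose by a log2 fold change of 3.78 (SE 0.75, adjusted p = 0.0288, edgeR) with vehicle against naïve, and was lower with TD139 than with vehicle by −2.76 (SE 0.70, adjusted p = 0.0212). Leaving out a mouse ended the first call in 5 of 9 fits, those without any 1 naïve mouse or vehicle-treated mouse 1 or 3 (adjusted p = 0.0708 to 0.113), and the second without vehicle-treated mouse 3 (0.0641) or TD139-treated mouse 2 (0.0758) or 3 (0.0654).

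Cd84, a SLAM-family receptor that binds itself on neighbouring leukocytes, was close to the floor in naïve retinas, with 2, 4 and 5 counts on chromosome 1. Vehicle-treated mice had 96, 74 and 101 counts and TD139-treated mice 38, 2 and 0. No other member rose by a larger fold: the log2 fold change was 4.47 (SE 1.14, adjusted p = 0.0468) against naïve mice, with a 95% confidence interval of 1.90 to 7.04. This call was lost without a filter on low counts (adjusted p = 0.0804), with library size alone (0.0502), with the replicate block (0.0605) and in 6 of the 9 fits that each left out a mouse. The difference between TD139 and vehicle, −2.66 (SE 0.98, adjusted p = 0.0624), missed the threshold with edgeR although the groups did not overlap, and passed it with DESeq2 (adjusted p = 0.0176) and limma voom (0.000302).

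Itgax encodes CD11c, the integrin chain used to mark dendritic cells and reactive microglia. It was the scarcest tested member, with 0, 3 and 5 counts in naïve retinas, 18, 19 and 21 after vehicle and 11, 3 and 0 after TD139. The vehicle-treated mice were alike and all above the rest, and the libraries at 0 lie under the floor. Neither the difference of vehicle from naïve mice (log2 fold change 2.70, SE 0.90, adjusted p = 0.0848) nor that of TD139 from vehicle (−1.94, SE 0.83, adjusted p = 0.0911) was called by edgeR, while limma voom called both (adjusted p = 0.014 and 0.00311) and DESeq2 neither (0.0789 and 0.138).

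The adaptors differed widely in abundance. Tyrobp, on chromosome 7, encodes DAP12 and had 41, 60 and 35 counts in naïve retinas, 678, 360 and 893 after vehicle and 266, 28 and 25 after TD139. The means were 1.71 ± 0.502, 22.3 ± 8.8 and 3.94 ± 5.13 CPM (SD, n = 3), and in the TD139 group mouse 1 stood far above its companions. The log2 fold change of 3.71 for vehicle against naïve was about that of Trem2, yet with an SE of 0.98 its adjusted p was 0.0651 in edgeR. Against vehicle, TD139-treated mice differed by −2.50 (SE 0.92, adjusted p = 0.0737). DESeq2 called both differences of Tyrobp (adjusted p = 0.00171 and 0.023), as did limma voom (0.00279 and 0.00181). Trem2 counts per Tyrobp count were 0.65 to 1.27 in naïve retinas, 0.872 to 1.06 after vehicle and 0.703 to 1.36 after TD139, ranges that overlap.

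Hcst encodes DAP10, an adaptor that binds phosphoinositide 3-kinase, and its gene ends 126 bases from the end of Tyrobp on the opposite strand. Its counts were 4, 2 and 4 in naïve retinas, 8, 2 and 9 after vehicle and 4, 7 and 0 after TD139. All 3 groups overlapped, and a difference was not detectable at this depth.

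The kinase gene Syk, on chromosome 13, had 5, 6 and 15 counts in naïve retinas, 64, 61 and 87 after vehicle and 45, 4 and 16 after TD139. Every vehicle-treated mouse was above every other mouse, and TD139-treated mouse 2 was below all naïve mice. Syk rose 7.49-fold with vehicle against naïve (log2 fold change 2.90, SE 0.70, adjusted p = 0.0349), and the difference under TD139 was −1.59 (SE 0.64, adjusted p = 0.0762), which limma voom called (0.00273) and DESeq2 did not (0.0513). The rise with vehicle was not called on flow cell 2 alone (2.25, adjusted p = 0.0846, beside 3.63 on flow cell 1) and was called in 3 of the 9 fits without 1 mouse, those without vehicle-treated mouse 2 or TD139-treated mouse 1 or 2. In the other 6 the adjusted p lay between 0.0547 and 0.124.

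Vav1, the haematopoietic exchange factor that activates RAC, had 9, 7 and 8 counts in naïve retinas, 67, 57 and 103 after vehicle and 47, 14 and 10 after TD139. The naïve mice were nearly equal, the vehicle-treated mice well above them, and all 3 TD139-treated mice lay between. Vav1 rose 8.61-fold with vehicle against naïve (log2 fold change 3.11, SE 0.56, adjusted p = 0.018) and was 2.99-fold lower with TD139 than with vehicle (−1.58, SE 0.50, adjusted p = 0.0324). The second call was lost in the fit of the 2 groups alone (adjusted p = 0.0527), with the length and GC correction (0.0539) and on flow cell 2 (0.107). It was also lost without vehicle-treated mouse 1 (0.0583) or 3 (0.114) and without TD139-treated mouse 2 (0.131) or 3 (0.115), and the rise without any 1 naïve mouse (0.0541 to 0.0788) or vehicle-treated mouse 3 (0.063).

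Plcg2 encodes the phospholipase that releases inositol trisphosphate and diacylglycerol below SYK. It had 60, 58 and 44 counts in naïve retinas, 88, 78 and 125 after vehicle and 66, 63 and 34 after TD139, so that the vehicle-treated group was higher without overlap but by a small margin. The log2 fold changes, 0.73 (SE 0.30, adjusted p = 0.141) against naïve and −0.75 (SE 0.30, adjusted p = 0.0699) for TD139 against vehicle, were not called by edgeR, and limma voom called the latter (adjusted p = 0.0152).

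Both inhibitory phosphatases were measured. Ptpn6 encodes SHP-1, a tyrosine phosphatase recruited by inhibitory receptors, and had 34, 23 and 25 counts in naïve retinas, 80, 107 and 108 after vehicle and 46, 22 and 10 after TD139. The gene rose 3.32-fold with vehicle (log2 fold change 1.73, SE 0.44, adjusted p = 0.0384) and was 3.56-fold lower with TD139 than with vehicle (−1.83, SE 0.44, adjusted p = 0.0118). The rise was not called on flow cell 1 alone (1.46, adjusted p = 0.0637) and was called in 2 of the 9 fits without 1 mouse, those without TD139-treated mouse 1 or 3. The second call was lost without TD139-treated mouse 2 (−1.70, adjusted p = 0.0606). In GENCODE, 195 of its exon bases (6.96%) overlap the antisense gene Gm20531, whose reads cannot be told apart unless counting used strand, which is not given in the sources used here.

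Inpp5d encodes SHIP-1, the lipid phosphatase that removes the product of phosphoinositide 3-kinase. Its counts were 88, 122 and 136 in naïve retinas, 193, 160 and 332 after vehicle and 135, 108 and 106 after TD139. Vehicle-treated mouse 3 was far above its companions, and naïve and TD139-treated mice covered the same levels, both with a mean of 4.32 CPM. The differences of vehicle from naïve, 0.87 (SE 0.27, adjusted p = 0.0677), and of TD139 from vehicle, −0.87 (SE 0.27, adjusted p = 0.029), were of the same size, and edgeR called the second. DESeq2 (adjusted p = 0.0234) and limma voom (0.0286) called the first as well. The second was not called on flow cell 2 alone (−0.67, adjusted p = 0.113) or without vehicle-treated mouse 3 (−0.54, adjusted p = 0.132), TD139-treated mouse 2 (−0.78, 0.112) or TD139-treated mouse 3 (−0.85, 0.0933).

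**Figure D2:**
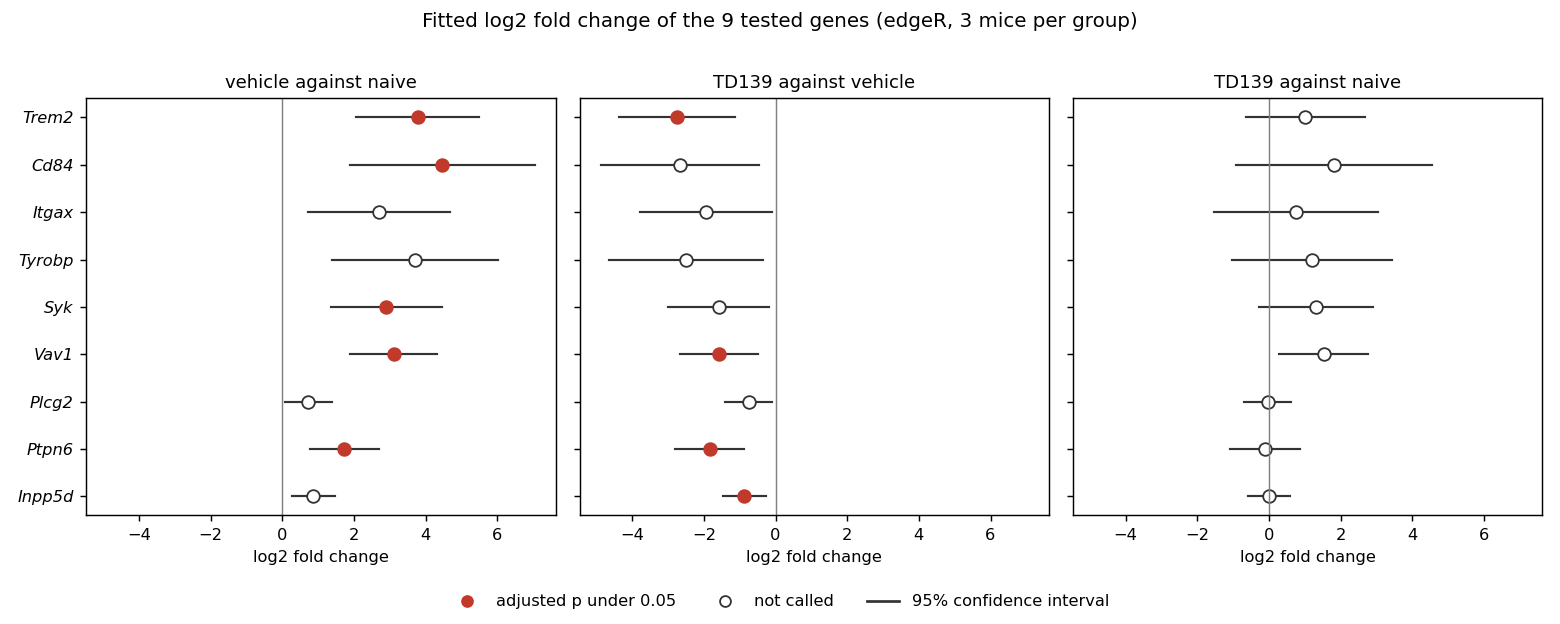
Points are fitted log2 fold changes of the 9 tested genes on the horizontal axis, lines their 95% confidence intervals, and filled points have an adjusted p under 0.05; the panels are vehicle against naïve, TD139 against vehicle and TD139 against naïve mice. From left to right 5, 4 and 0 genes are filled, and in the left and middle panels the largest changes are those of Cd84 and Trem2.

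The calls can be read against the whole table of 15196 tested genes. For vehicle against naïve mice 4.91% of all tested genes were higher at an adjusted p under 0.05, and 5 of 9 members were. Where a size of 2 on the log2 scale was required as well, the shares were 1.24% of all genes and 4 of 9 members (Trem2, Cd84, Syk and Vav1). The lowest vehicle-treated mouse exceeded the highest naïve mouse for 16.7% of all genes and for 9 of 9 members. The members' median log2 fold change was 2.90. These counts cover only the 9 members that passed the filter on low counts, which the vehicle-treated group alone could satisfy.
Calls in this comparison depended on single mice: none of the members was called without any 1 of the naïve mice or without vehicle-treated mouse 3, 1 without vehicle-treated mouse 1, and 7 without TD139-treated mouse 1, which is in neither group compared but enters the filter and the estimate of spread. Over the 9 fits that each left out a mouse, the log2 fold change lay between 3.38 and 4.09 for Trem2, 2.85 and 3.26 for Vav1, 2.66 and 3.53 for Syk, 1.63 and 1.95 for Ptpn6, 4.21 and 4.74 for Cd84, 2.16 and 3.47 for Itgax and 0.54 and 1.06 for Inpp5d.

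For TD139 against vehicle 16.2% of all tested genes were lower at an adjusted p under 0.05, and 4 of 9 members were. Where a size of −2 or lower on the log2 scale was required as well, the shares were 1.53% of all genes and 1 of 9 members, Trem2. TD139-treated mice lay below all vehicle-treated mice for 25.4% of all genes and for 9 of 9 members, whose median log2 fold change was −1.83. This comparison and the one above share the vehicle-treated mice, and the limit set by the filter on low counts holds here too, since a member high in that group alone could pass it.
The number of members called lower was 8 without TD139-treated mouse 1, 0 without TD139-treated mouse 2, 1 without TD139-treated mouse 3 and 1 without vehicle-treated mouse 3. Without TD139-treated mouse 1 the log2 fold changes were −4.03 for Trem2 (adjusted p = 0.000516), −4.50 for Tyrobp (adjusted p = 0.00023), −6.26 for Cd84 (adjusted p = 0.0003), −3.51 for Itgax (adjusted p = 0.019), −2.68 for Syk (adjusted p = 0.00757), −2.56 for Vav1 (adjusted p = 0.00133) and −2.54 for Ptpn6 (adjusted p = 0.00115). In the fit of the 2 groups alone, the call of Trem2 was lost (−2.77, adjusted p = 0.0655).

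TD139-treated mouse 1 was the highest of its group for 9 of 9 tested members and lay above all naïve mice for each, but reached the lowest vehicle-treated mouse for none. Mouse 2 of that group was above all naïve mice for 1 member, within the naïve range for 4 and below it for 4, and mouse 3 gave 2, 3 and 4. Vehicle-treated mouse 3 was the highest of its group for 7 of 9 members.

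For TD139 against naïve mice 5.10% of all tested genes were called in either direction, and 0 of 9 members were. At an unadjusted p under 0.05 edgeR found 1 member, Vav1 (log2 fold change 1.53, 95% confidence interval 0.28 to 2.77, adjusted p = 0.106), and DESeq2 and limma voom called none. The intervals were wide for Trem2 (−0.65 to 2.69), Tyrobp (−1.03 to 3.44) and Cd84 (−0.93 to 4.55), so that both the naïve level and a several-fold excess are compatible with these mice. They were narrower for Inpp5d (−0.59 to 0.59) and Plcg2 (−0.69 to 0.63). For Trem2, Tyrobp, Itgax and Cd84 the higher mean of the TD139 group rested on mouse 1, without which the log2 fold changes were −0.25, −0.79, −0.80 and −1.77. Without that mouse the values for Vav1 and Syk shrank to 0.56 and 0.24.

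Scaled by length (CPM per kilobase of the principal transcript), Tyrobp and Trem2 were the 2 most abundant members in every group, an order that holds for this choice of length. Tyrobp had 3.03 ± 0.89 CPM per kilobase (SD, n = 3) in naïve retinas, 39.6 ± 15.6 after vehicle and 6.99 ± 9.09 after TD139, and Trem2 1.44 ± 0.355, 19.8 ± 9.51 and 2.93 ± 2.98. Their ranges did not overlap in naïve mice but did in the other groups. The value for Trem2 rests on a principal transcript of 1088 bases, while all its annotated exons cover 4946 bases. Scaled by the latter instead, Trem2 (0.318 CPM per kilobase in naïve mice) ranked below Inpp5d (0.568), Plcg2 (0.473) and Ptpn6 (0.368).
In naïve mice the order on this scale continued with Inpp5d (0.875), Plcg2 (0.473), Ptpn6 (0.464), Hcst (0.283), Vav1 (0.102), Syk (0.0602), Cd84 (0.0416) and Itgax (0.0244). Plcg2 and Ptpn6 overlapped, as did all neighbours from Vav1 down. In vehicle-treated mice Inpp5d (1.6) and Ptpn6 (1.54) followed Trem2 with overlapping ranges, and Cd84 (0.956), apart from Ptpn6, had moved above Vav1 (0.885), Plcg2 (0.783), Hcst (0.497) and Syk (0.458), each overlapping the next. Itgax (0.166) remained last and apart from Syk. The order in TD139-treated mice was that of the naïve mice, with overlap between all neighbours from Plcg2 down.

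The 7 members with a count in every mouse were also set against the summed CPM of the microglial identity genes, which leaves out Cd84 and Itgax. Trem2 was 9.19, 7.65 and 5.71% of that sum in naïve retinas, 25.0, 13.8 and 31.0% after vehicle and 14.0, 6.76 and 7.89% after TD139. Tyrobp behaved alike, with means of 8.3, 24.3 and 10.3%. Vav1 was 1.44 ± 0.134% (SD, n = 3) in naïve retinas, 2.87 ± 0.449% after vehicle and 2.8 ± 0.619% after TD139, and Syk 1.53, 2.72 and 2.63% on average. Each of these 4 shares was higher in every vehicle-treated than in every naïve mouse, as it was for 0.338% of the 15070 tested genes with a count in every mouse. The reverse order was found for 94.0% of them, since the sum itself rose.
Inpp5d and Plcg2 were among that majority. Inpp5d was 15.5, 23.9 and 22.9% of the sum in naïve retinas, 7.92, 7.01 and 10.9% after vehicle and 10.1, 19.2 and 25.4% after TD139. Plcg2 averaged 9.79, 3.71 and 8.09%, and every vehicle-treated mouse was below every naïve and every TD139-treated mouse. For TD139 against vehicle, 88.5% of the genes had a higher and 0.511% a lower share without overlap, so the higher share of Plcg2 is not particular to it. Ptpn6 overlapped between groups, with means of 4.91, 3.84 and 3.25%.
The exact two-sided permutation test gave p = 0.1 for each non-overlapping pair of groups, which is the smallest p that 3 against 3 mice allow, so none of the 14 comparisons of this kind could pass 0.05. For TD139 against vehicle the shares of Trem2 and Tyrobp overlapped (exact p = 0.2 for both). Of the reference genes 8 of 11 rose with vehicle and 8 were lower with TD139, beside 4.91% and 16.2% of all tested genes. Hence a share of their sum compares a member with genes that themselves changed.

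**Figure D3:**
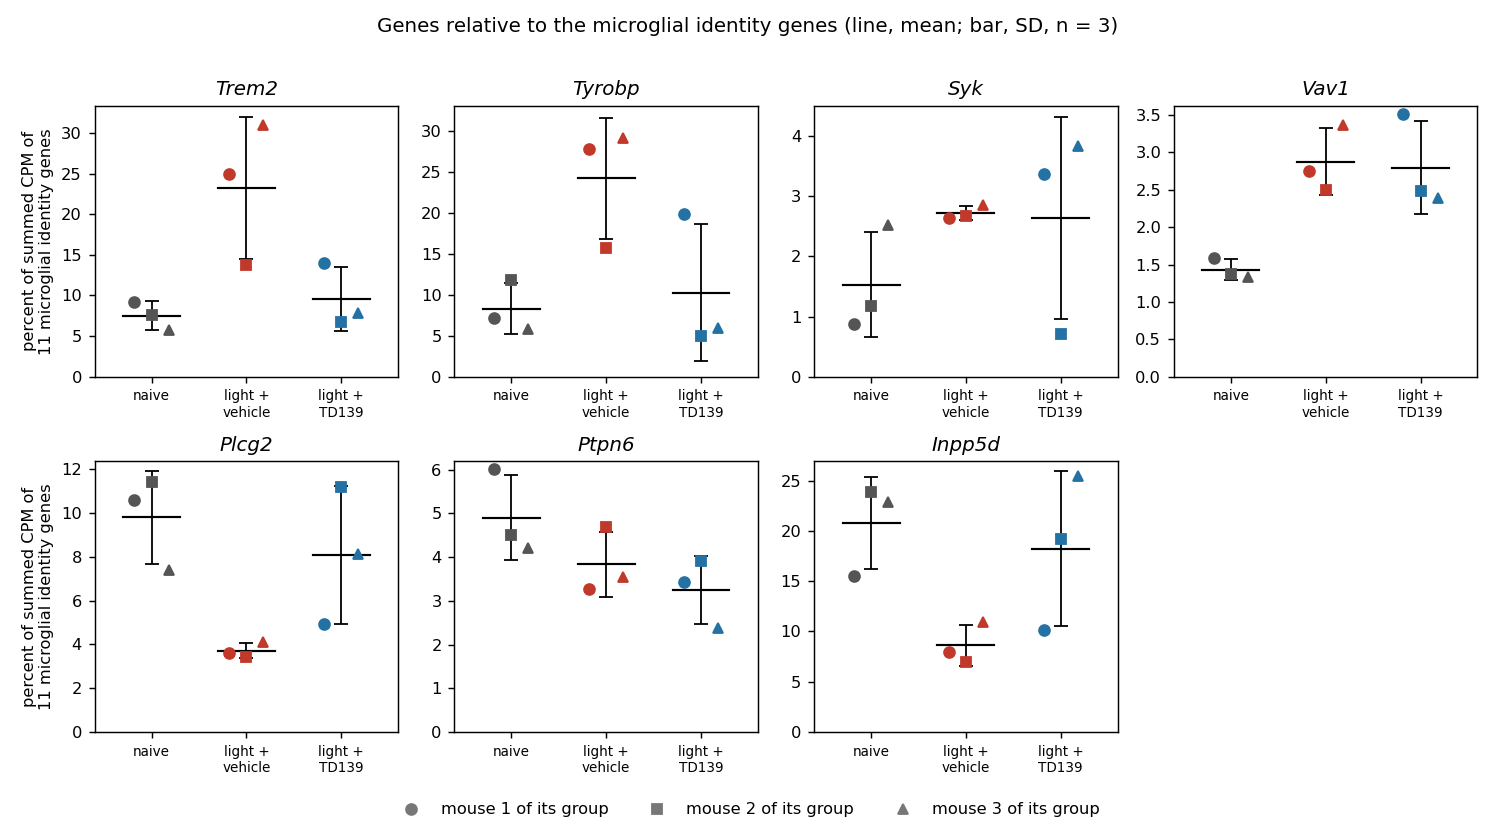
Each panel shows, for 1 gene, its CPM as a percent of the summed CPM of 11 microglial identity genes in each mouse, on a linear axis from 0, with means (lines) and SD (bars, n = 3). Trem2, Tyrobp, Syk and Vav1 are higher and Plcg2 and Inpp5d lower in all vehicle-treated than in all naïve mice, and Ptpn6 overlaps.

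Across the 9 mice, the genes whose log2 CPM followed Trem2 most closely among 13088 genes were Spp1 (Pearson r 0.990), which encodes osteopontin, Fcer1g (0.990), Ly86 (0.987), Lcp1 (0.987) and Cd68 (0.987), a lysosomal protein of macrophages. The mean profile of the tested members was matched best by Lcp1, the actin-bundling protein of leukocytes, the complement genes C1qc and C1qa (0.996 each), C1qb and Laptm5 (0.995 each). Between pairs of members r ran from 0.584 to 0.984 over 36 pairs, with a median of 0.864. These correlations describe mice that fall into groups and share libraries, and carry no test.

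Upstream of the members, 8 of 9 genes written down as TREM2 ligands, sheddases and modifiers were tested. Of these 3 rose with vehicle and 3 were lower with TD139, beside 4.91% and 16.2% of all tested genes. The 3 were Apoe (log2 fold changes 1.42 and −1.32 for vehicle against naïve and TD139 against vehicle), a lipoprotein bound by TREM2, Clu (1.43 and −1.71), another lipoprotein ligand, and Ms4a6d (4.28 and −3.72). Ms4a6d, with 2, 6 and 10 counts in naïve retinas and 23, 1 and 3 after TD139, passed the filter on low counts only with the vehicle-treated mice. The sheddase and gamma-secretase genes in the list were not called by edgeR in these comparisons, and limma voom called 1 of them, Adam10, higher with TD139. Another 16 genes were written down as receptors that couple to DAP12 or DAP10, and TREM-family genes without known coupling were among them. Of the 16, 4 passed the filter and 0 were called by edgeR or DESeq2 in either comparison. None reached an unadjusted p under 0.05 with edgeR, while limma voom called 1, Clec5a, lower with TD139. Clec5a had 1, 11 and 3 counts in naïve retinas, 18, 13 and 20 after vehicle and 11, 2 and 0 after TD139, and Siglech, whose groups overlapped, 23, 13 and 18 counts in naïve retinas, 26, 19 and 44 after vehicle and 34, 27 and 23 after TD139. Among the receptors that failed the filter, Cd300lb had 0 counts in each naïve mouse, 6, 5 and 16 after vehicle and 1, 0 and 0 after TD139. Treml2, a TREM-family gene whose coupling to either adaptor was not examined here, had 3, 0 and 2, then 4, 13 and 32, and 5, 2 and 0 counts in these groups. For Clec5a, Cd300lb and Treml2 the vehicle group did not overlap the naïve one and was the higher. Trem1, Sirpb1b, Klrk1 and Klrd1 were at 0 counts in all 9 mice. Adam10 and the counts of these receptors were looked up after the values were seen.

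Around and below SYK, 30 kinases, adaptors and effectors were tested, and 7 rose with vehicle while 11 were lower and 4 higher with TD139, beside 4.91%, 16.2% and 17.2% of all tested genes. The most abundant of these moved little: Rac1, the GTPase switched on by VAV, changed by 0.38 (adjusted p = 0.0254) with vehicle and −0.42 (adjusted p = 0.00664) with TD139, and Src by 0.52 and −0.53. The 4 higher with TD139 than with vehicle, a share below that of all genes, were Pik3r1 (0.41), Sos1 (0.62), Malt1 (0.38) and Cbl (2.07), of which Malt1 and Cbl were named after the values were seen.
Some larger changes were picked out after the values were seen. Lyn, a SRC-family kinase that phosphorylates ITAMs, rose by 2.11 with vehicle and was lower by −1.92 with TD139. Btk (2.88 and −2.34), Blnk (2.80 and −1.83) and Fcer1g (3.54 and −2.67), the ITAM chain of Fc receptors, changed likewise, while Pik3ap1 (0.42 and −0.07), Pik3cd (0.34 and −0.23) and Pik3r5 (0.61 and −0.44), also genes of leukocytes, were called in neither comparison by edgeR. Btk, with 1, 9 and 2 counts in naïve retinas and 11, 6 and 1 after TD139, passed the filter on low counts only with the vehicle-treated mice. The median over the list was 0.40 for vehicle against naïve and −0.43 for TD139 against vehicle, beside members' medians of 2.90 and −1.83.

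Of 13 tested inhibitory receptors and adaptors that recruit SHP-1 or SHIP-1, 1 rose with vehicle and 1 was lower with TD139, beside 4.91% and 16.2% of all tested genes, in both cases Cd300a (3.62, adjusted p = 0.03, and −2.16, adjusted p = 0.044). Cd300a had 4 counts in each naïve mouse, 65, 28 and 71 after vehicle and 27, 1 and 6 after TD139. It passed the filter on low counts only with the vehicle-treated mice. At an unadjusted p under 0.05 edgeR gave 7 and 4 of the 13. DESeq2 called 4 higher with vehicle and 2 lower with TD139. With limma voom 4 were higher and 1, Dok3, lower with vehicle, and 4 were lower and 1, again Dok3, higher with TD139. In the SLAM family of Cd84, 4 genes were tested, of which 2 rose with vehicle and 3 were lower with TD139, beside the same shares of all tested genes. The other 7 of 11 listed genes failed the filter. Ly9, Cd48 and Slamf9 would not have passed it without the vehicle-treated mice, so the numbers of calls are a description. Ly9 (4.67 and −4.69) and Cd48 (3.96 and −1.99) were called in both, and Slamf9 only for TD139 against vehicle (−1.86, adjusted p = 0.0222, beside 1.62, adjusted p = 0.0775). Sh2d1a, the SAP adaptor and the most abundant tested gene of this list, went the other way, with 559, 305 and 253 counts in naïve retinas, 214, 230 and 209 after vehicle and 234, 454 and 250 after TD139. Its differences of −0.89 (adjusted p = 0.1) and 0.59 (adjusted p = 0.161) were not called by edgeR, while DESeq2 called the first (adjusted p = 0.0356). Dok3 and Sh2d1a were looked up after the values were seen. Among 7 tested partners of CD11 integrins, 4 rose with vehicle and 4 were lower with TD139, beside 4.91% and 16.2% of all tested genes. The 4 were Itgb2, the beta-2 chain that pairs with CD11c (2.55 and −2.48), Itgam (2.07 and −1.77), Icam1 (3.55 and −3.01) and Fermt3 (0.86 and −1.01).

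The program known as disease-associated microglia has a first stage reached without TREM2 and a second that requires it. Of 7 first-stage genes, Tyrobp included, 3 rose with vehicle and 5 were lower with TD139 by edgeR, beside 4.91% and 16.2% of all tested genes, such as Ctsd (1.47 and −1.51) and Ctsb (0.92 and −0.86). Of 12 tested second-stage genes, Trem2 and Itgax included, 9 rose and 9 were lower, with Spp1 (3.80 and −2.87), Ctsl (1.37 and −1.61), Timp2 (1.04 and −0.83) and Cd9 (0.88 and −1.04). At an unadjusted p under 0.05 all 7 and all 12 differed between vehicle-treated and naïve mice. DESeq2 called 5 of the 7 and 11 of the 12 higher with vehicle, and limma voom called all of them higher with vehicle and lower with TD139. The medians of both stages were close, 1.47 and 1.55 for vehicle against naïve and −1.51 and −1.73 for TD139 against vehicle, where the medians over all genes were −0.00 and −0.02. No gene of either stage was called for TD139 against naïve mice by edgeR, and at an unadjusted p under 0.05 there were 1 and 2. In that comparison DESeq2 called 1 first-stage gene lower and 1 second-stage gene higher, and limma voom called 1 gene of each stage lower.

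**Figure D4:**
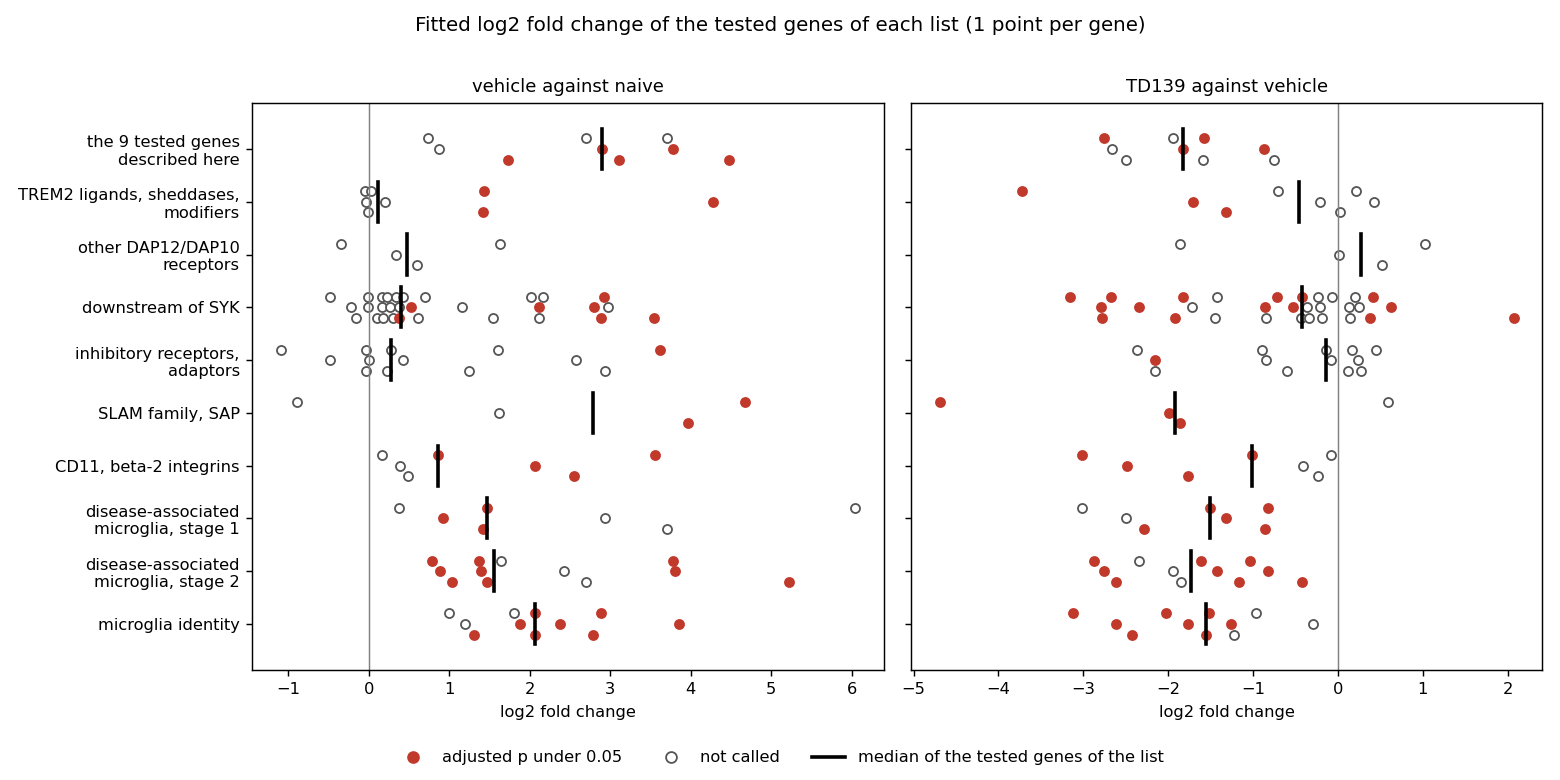
Each point is the fitted log2 fold change of 1 tested gene, by list, for vehicle against naïve (left) and TD139 against vehicle mice (right); filled points have an adjusted p under 0.05 and black lines mark list medians. The 9 tested genes described here have medians of 2.90 and −1.83, and the genes downstream of SYK medians of 0.40 and −0.43 with filled points on both sides of 0 under TD139.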

How the data were processed

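The authors sequenced stranded poly(A) RNA libraries of whole mouse retinas on 2 flow cells and deposited, for each mouse and flow cell, whole-number counts per gene from BaseSpace RNA Express, which the paper's data statement calls normalized but which are whole numbers with unequal totals and were used as unscaled. The submitters' processing notes name the build mm10, and the annotation and strand setting used for counting are not given in the sources used here. Reads on no feature (16.5 to 22.8%) and ambiguous reads (0.303 to 0.471%) were left out. Groups were taken from the labels, and both runs of a mouse were summed to 1 replicate.
All 3 groups were fitted together in edgeR 4.0.16 (R 4.3.3) with filterByExpr, TMM and a robust quasi-likelihood fit, with Benjamini-Hochberg adjustment of the F test's p-values over 15196 genes. A gene was called at an adjusted p under 0.05. The SE is the log2 fold change divided by the square root of F. Alternatives used DESeq2 1.42.0, limma 3.58.1 voom with quality weights, and those given in the closing section. The fits were tested on simulated data, where DESeq2 made more false calls than edgeR and limma voom.
GENCODE M21 (GRCm38) gave positions and lengths for 98.43% of symbols. Promoters came from RefSeq tables, which held 9 of the 10 members.
All 10 members were named, and in other lists at most 4 called genes with the highest mean count, or the 2 highest where none was called. Further genes are marked in the text as chosen after their values were seen. The 5 genes most like Trem2, and most like the members' mean, were sought above a mean count of 50. Members and lists were chosen with earlier results of these data known. Some genes of these lists are not reported here.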

Additional observations from a re-analysis of the deposited data

How the results depend on the processing

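For vehicle against naïve, limma voom called 8 members higher, and the fits without 1 mouse called 0 to 7, or 0 to 6 where a size of 2 on the log2 scale was required as well. For TD139 against vehicle, limma voom called 9 members lower and the fit of the 2 groups alone 2, and the fits without 1 mouse 0 to 8. Requiring a size of −2 or lower on that scale left 3 with DESeq2, 7 with limma voom, 2 on flow cell 2 alone, 0 with the 2 groups alone and 0 to 7 without 1 mouse. Leaving out a mouse leaves fewer samples: over all genes, 746 were called higher with vehicle, and 62, 1 and 140 without naïve mouse 1, 2 or 3.
For TD139 against naïve, where no alternative called a member, signs turned as follows. With limma voom the log2 fold changes were −0.63 for Tyrobp, −1.13 for Itgax and −1.60 for Cd84. Inpp5d was at 0.00 with RLE, DESeq2 and the 2 groups alone, at 0.01 with library size alone, without a filter and with the replicate block, and at 0.03 on flow cell 1. Ptpn6 was at 0.44 on flow cell 2 and at 0.08 with the length and GC correction. Without 1 mouse the values ran from −0.25 to 1.40 for Trem2, −0.79 to 1.68 for Tyrobp, −0.19 to 0.20 for Plcg2, −0.14 to 0.12 for Inpp5d, −0.80 to 0.27 for Ptpn6, −0.80 to 1.53 for Itgax and −1.77 to 2.39 for Cd84. The causes were not tested.
Mice with the same number did not deviate together (correlations −0.26 to 0.28), so the numbers do not pair them, and with the replicate number as a block 4 members were called higher with vehicle and 4 lower with TD139. Of 532 values under other settings 431 kept direction and side of the threshold, 49 lost a call, 25 gained one and 27 turned. Hcst, Itgax, Cd84, Syk and Vav1, with fewer than 10 counts in several mice, are limited by depth.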
